A study of Homo sapiens with 6 samples.

Results

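The transcripts described here are those of 9 redox and NADPH enzymes known as targets of the transcription factor NRF2, chosen by gene symbol: NQO1, TXNRD1, SRXN1, TXN, PRDX1, PGD, TALDO1, ME1 and OSGIN1. All 9 were found among the 46427 genes listed in each library, and all 9 were among the 11856 genes tested, whose mean FPKM across the 6 libraries reached 1 (FPKM is fragments scaled by transcript length and by the library's mapped fragments). The libraries came from K562, an established human erythroleukemia cell line carrying the BCR-ABL1 fusion, labelled wild type. In 3 libraries the cells had received 10 µM HR-19011, named in the labels by this code only, and in 3 libraries 0.1% DMSO as vehicle, each for 24 h. The DMSO content of the HR-19011 cultures is not given in the labels, nor is it said whether a group's libraries stem from different cultures. The p-values therefore speak only to the spread among these libraries, which may be technical.

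NRF2, encoded by NFE2L2, is held at low levels by KEAP1, an adaptor that presents it to a CUL3 ubiquitin ligase. When cysteines of KEAP1 are modified, NRF2 accumulates, pairs with a small MAF protein and binds antioxidant response elements in DNA, which BACH1 can occupy as a repressor. The enzymes it induces reduce quinones, thiols and peroxides, and they draw on NADPH that the pentose phosphate pathway and malic enzyme regenerate. In erythroid cells, which handle much heme and iron, peroxiredoxins are among the abundant antioxidant proteins.

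The libraries held the markers of the labelled line. All 10 erythroid and K562 markers were listed at 1 FPKM or more. They summed to 3570 to 3758 FPKM in HR-19011 libraries and 8785 to 8952 FPKM in vehicle libraries, mostly from the globins HBG1 and HBG2. The markers did not move alike. KLF1 averaged 11.4 FPKM in HR-19011 and 79.9 FPKM in vehicle libraries, and TAL1 32.0 FPKM in HR-19011 and 31.3 FPKM in vehicle libraries. CD2 of T cells, MS4A1 of B cells, PDGFRA of fibroblasts, KRT5 of basal epithelium and CDH5 of endothelium were listed at 0 throughout. The other markers of these lists were not. CD3D of T cells averaged 11.9 FPKM in HR-19011 and 7.40 FPKM in vehicle libraries, LYZ of monocytes 12.8 FPKM in HR-19011 and 11.6 FPKM in vehicle libraries, and EPCAM of epithelium 20.3 FPKM in HR-19011 and 32.5 FPKM in vehicle libraries. The 4 epithelial markers summed to 691 to 708 FPKM in HR-19011 libraries and 287 to 304 FPKM in vehicle libraries, mostly from the keratins KRT8 and KRT18. The part of these marker shifts in the results was not tested. The 3 T cell markers summed to 11.7 to 12.4 FPKM in HR-19011 libraries and 6.21 to 9.14 FPKM in vehicle libraries, and the B cell, monocyte, fibroblast and endothelial sums lay at 13.3 FPKM or below in all libraries. Summed FPKM was 423885 ± 3632 in HR-19011 and 461938 ± 5487 in vehicle libraries (SD, n = 3 each). Read counts are not given in these files, so the depth behind each value is unknown.

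Promoter windows of 8 of the 9 genes, 9 windows in all because TXNRD1 has 2, were taken from RefSeq on GRCh38.p14, each from 250 bases before to 50 bases after a gene's start. They were searched on both strands for the core of the antioxidant response element, written TGACNNNGC, for the AP-1 site TGANTCA, which can lie inside that core, and for TTGCATCA, a core bound by ATF4 with a C/EBP partner. The first was found in 4 windows, those of PGD and ME1 and both of TXNRD1, and in 13.3% of all 35116 windows (14.9% of those of tested genes). The AP-1 letters were found in the windows of ME1 and OSGIN1 and in 7.71% of all windows (4.81% of those of tested genes). The third was in none of the 9 and in 0.866% of all windows. The 4 windows printed here hold a match in a gene whose transcript rose, and capitals mark the antioxidant response element core and the AP-1 site on either strand. ME1 lies at chr6:83431002-83431301 on the minus strand, TXNRD1 (its upstream start) at chr12:104215529-104215828 on the plus strand, PGD at chr1:10398814-10399113 on the plus strand and OSGIN1 at chr16:83952990-83953289 on the plus strand.
ME1: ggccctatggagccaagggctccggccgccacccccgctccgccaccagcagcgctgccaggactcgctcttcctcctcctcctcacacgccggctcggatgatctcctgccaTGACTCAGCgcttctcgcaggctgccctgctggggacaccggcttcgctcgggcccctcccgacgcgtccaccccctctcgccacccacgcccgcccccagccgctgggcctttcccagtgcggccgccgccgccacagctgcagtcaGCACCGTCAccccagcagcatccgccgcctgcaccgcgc
TXNRD1: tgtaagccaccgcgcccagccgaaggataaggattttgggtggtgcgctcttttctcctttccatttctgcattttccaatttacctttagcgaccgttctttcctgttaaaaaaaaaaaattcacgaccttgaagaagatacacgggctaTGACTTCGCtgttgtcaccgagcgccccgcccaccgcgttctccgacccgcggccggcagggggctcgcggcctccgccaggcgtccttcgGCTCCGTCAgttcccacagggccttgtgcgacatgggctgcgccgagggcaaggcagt
PGD: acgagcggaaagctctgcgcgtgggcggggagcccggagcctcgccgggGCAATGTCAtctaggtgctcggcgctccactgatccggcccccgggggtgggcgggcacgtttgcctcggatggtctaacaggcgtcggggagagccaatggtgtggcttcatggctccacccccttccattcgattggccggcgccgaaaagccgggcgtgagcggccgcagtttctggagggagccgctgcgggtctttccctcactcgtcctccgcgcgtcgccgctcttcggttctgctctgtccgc
OSGIN1: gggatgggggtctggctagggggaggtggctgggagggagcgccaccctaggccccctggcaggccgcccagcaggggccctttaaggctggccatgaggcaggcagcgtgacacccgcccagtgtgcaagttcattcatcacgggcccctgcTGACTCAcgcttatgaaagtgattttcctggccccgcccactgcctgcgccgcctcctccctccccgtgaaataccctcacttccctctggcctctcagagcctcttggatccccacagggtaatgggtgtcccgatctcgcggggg
In ME1 the letters TGACTCAGC, which hold both motifs, begin at position -137, counted from the first transcribed base as 1, and a second core on the other strand begins at position 12. In the printed TXNRD1 window the cores begin at positions -99 and -8, in PGD at position -201, and in OSGIN1 the AP-1 letters begin at position -97. The second TXNRD1 window, at chr12:104286782-104287081 and not printed, holds 1 core, at position -102 from its own start. FPKM per gene does not tell which start of TXNRD1 was used. The windows of NQO1, SRXN1, TXN and TALDO1 held none of the 3, which says only that these letters are absent from these 300 bases. A match is a string of letters, not a site shown to be bound.

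Of the 9 transcripts, 8 rose and 1 fell after HR-19011 at a Benjamini-Hochberg adjusted p under 0.05 in limma, where 46.4% of all tested genes were higher and 38.0% lower. Of the changes by 1.5-fold or more, OSGIN1 rose 22.6-fold, NQO1 3.43-fold, ME1 2.76-fold, TXNRD1 1.99-fold and PGD 1.69-fold. The groups did not overlap for any of the 9, with HR-19011 higher for 8 and lower for 1, as was so for 46.9% and 38.3% of tested genes. SRXN1, TALDO1 and TXN were higher by 1.18-fold or less, and PRDX1, the most abundant of the 9, fell 1.32-fold. The split depended on scaling: under TMM 5 of the 9 were higher and 3 lower, with TXN and TALDO1 called lower and SRXN1 not called. Of all 11856 tested genes, 4128 were higher and 5960 lower under TMM. With 84.4% of all genes called, a call by itself sets a gene little apart, so each transcript is also placed among all genes by size of change. The median log2 fold change of the 9 was 0.76 on the log2(FPKM + 1) scale, against 0.07 for all genes tested. A change in RNA per cell and a change in the mix of cells cannot be told apart in bulk libraries.

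**Figure D1:**
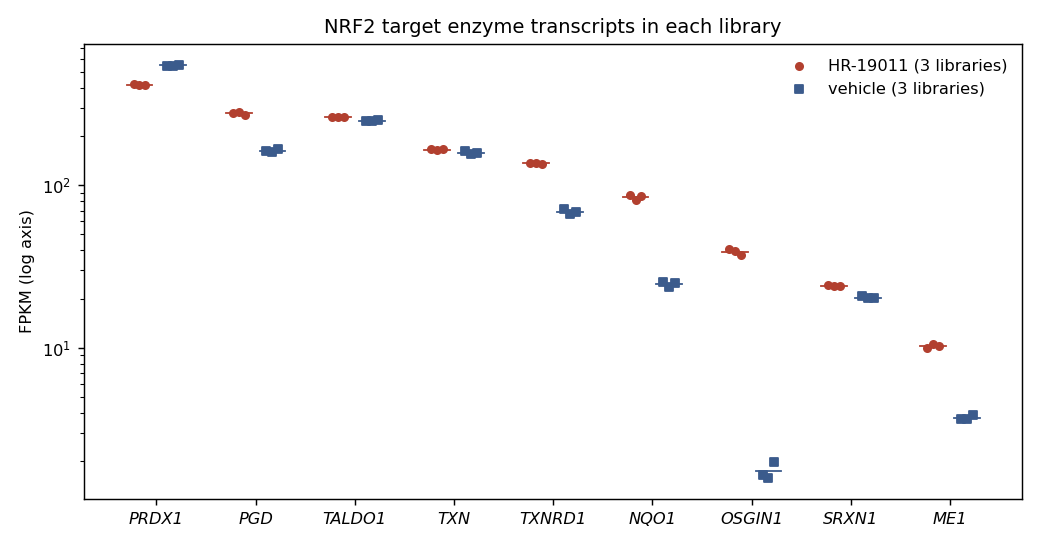
FPKM (log axis) of the 9 transcripts in each library, HR-19011 in red circles and vehicle in blue squares, with a line at each mean of 3 libraries, ordered by the HR-19011 mean. The groups do not overlap for any of the 9, and the vertical gap between groups is widest for OSGIN1 (39.1 FPKM with HR-19011 against 1.73 FPKM with vehicle) and narrow for TXN (166 FPKM with HR-19011 against 159 FPKM with vehicle).

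The flavoprotein NQO1 reduces quinones by a single hydride transfer that avoids semiquinone radicals, and its gene is a widely used readout of NRF2 activity. It was listed at 87.4, 81.6 and 86.4 FPKM in HR-19011 libraries and at 25.6, 23.8 and 25.2 FPKM in vehicle libraries. Every HR-19011 library was thus above every vehicle library, and the log2 fold change was 1.74 (limma SE 0.0388, adjusted p = 8.37e-10), at rank 435 of 11856 tested genes. Its paralog NQO2, which uses dihydronicotinamide riboside in place of NAD(P)H, averaged 64.0 ± 3.78 FPKM in HR-19011 and 47.5 ± 0.678 FPKM in vehicle libraries (SD, n = 3 each), 1.35-fold higher. The ratio of NQO1 to NQO2 within a library, which a scale factor per library cannot move, was 1.40, 1.19 and 1.41 with HR-19011 and 0.530, 0.4999 and 0.538 with vehicle. NQO2 was therefore the more abundant transcript of the pair in all vehicle libraries and the less abundant in all HR-19011 libraries.

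OSGIN1, which encodes a growth inhibitor induced by oxidative stress, was seventh of the 9 by level in HR-19011 libraries and last in vehicle libraries. It was listed at 40.3, 39.7 and 37.4 FPKM in HR-19011 libraries and at 1.64, 1.58 and 1.98 FPKM in vehicle libraries. The log2 fold change was 3.88 (SE 0.0610, adjusted p = 1.54e-10 in limma), at rank 24 of all tested genes. Its relative OSGIN2 was listed at 5.56 ± 0.240 FPKM in HR-19011 and 5.21 ± 0.134 FPKM in vehicle libraries (SD, n = 3 each) and was not called (log2 fold change 0.08, limma adjusted p = 0.136). Its direction depended on scaling, with a log2 fold change of -0.13 under TMM (limma adjusted p = 0.0287), -0.13 under quantile scaling (0.0249) and 0.20 in TPM (0.00460). The ratio of OSGIN1 to OSGIN2 within a library was 7.61, 7.06 and 6.48 with HR-19011 and 0.308, 0.311 and 0.379 with vehicle.

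The thioredoxin system passes electrons from NADPH through the selenoenzyme thioredoxin reductase 1, encoded by TXNRD1, to the small dithiol protein thioredoxin, encoded by TXN. TXNRD1 was listed at 137, 138 and 136 FPKM in HR-19011 libraries and at 71.7, 66.4 and 68.4 FPKM in vehicle libraries. Its log2 fold change was 0.98 (SE 0.0319, adjusted p = 6.97e-09 in limma), with no overlap between the groups. TXN, the substrate, was listed at 166, 164 and 167 FPKM in HR-19011 libraries and at 162, 156 and 158 FPKM in vehicle libraries. The groups did not overlap, as was so for 85.2% of tested genes, but the gap between the nearest libraries was small. The log2 fold change of TXN was 0.06 (SE 0.0247, adjusted p = 0.0428), close to the all-gene median of 0.07. Under TMM scaling it turned to -0.18 (adjusted p = 9.95e-05), without a variance trend its adjusted p was 0.121, with the replicate number as a block 0.0795, and leaving out any 1 of the 6 libraries except vehicle replicate 1 gave adjusted p between 0.0518 and 0.119. The ratio of reductase transcript to substrate transcript was higher in every HR-19011 library. TXNRD1 to TXN was 0.820, 0.840 and 0.816 with HR-19011 and 0.442, 0.425 and 0.434 with vehicle.

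The mitochondrial counterparts of this pair were not called in FPKM as deposited, and their direction depended on scaling. TXNRD2, the mitochondrial reductase, averaged 23.0 ± 1.36 FPKM in HR-19011 and 22.5 ± 1.78 FPKM in vehicle libraries (SD, n = 3 each; limma adjusted p = 0.625). Mitochondrial thioredoxin TXN2 averaged 61.1 ± 2.20 FPKM in HR-19011 and 59.0 ± 2.82 FPKM in vehicle libraries (limma adjusted p = 0.283). The log2 fold change of TXNRD2 was -0.20 under TMM (limma adjusted p = 0.0127), 0.16 in TPM (0.0360) and 0.11 under quantile scaling (0.120). That of TXN2 was -0.19 under TMM (limma adjusted p = 0.00168), 0.17 in TPM (0.00204) and 0.21 under quantile scaling (0.00107). TXNRD3, the third reductase gene, was below the filter at 0.677 ± 0.0360 FPKM in HR-19011 and 0.331 ± 0.0573 FPKM in vehicle libraries. At these low levels it was 2.04-fold higher with HR-19011, and the TXNRD1 to TXNRD3 ratio overlapped between the groups. TXNIP, the thioredoxin-binding inhibitor, rose 1.35-fold to 124 ± 5.31 FPKM in HR-19011, against 91.6 ± 7.71 FPKM in vehicle libraries. The TXN to TXNIP ratio was 1.31, 1.40 and 1.32 with HR-19011 and 1.69, 1.89 and 1.64 with vehicle. Of 13 thioredoxin-fold and thioredoxin-linked genes outside the 9, 11 were tested, 5 rose and 3 fell, with a median log2 fold change of 0.05. For all tested genes the shares were 46.4% higher and 38.0% lower, and the median was 0.07. Under TMM 6 of the 11 were lower, and in TPM 8 of the 11 were higher. Of all 11856 tested genes, 5960 were lower under TMM and 6269 higher in TPM. TXNDC12 and TXNDC11, thioredoxin-domain proteins of the endoplasmic reticulum, rose 2.41-fold and 1.69-fold, whereas TXNL4A, a spliceosome component with a thioredoxin fold, fell 1.73-fold and TXNDC17 fell 1.46-fold.

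TXNRD1 carries selenocysteine, so the selenoprotein genes and the machinery that inserts selenocysteine were counted beside it. Of 27 such genes, 21 were tested, 10 rose and 6 fell, with a median log2 fold change of 0.03. Over all tested genes 46.4% were higher and 38.0% lower, with a median of 0.07, so the share that rose was near that of all genes. SELENOM and SELENOS, both of the endoplasmic reticulum, rose 7.31-fold and 2.17-fold, while SELENOW and SEPHS1 fell 1.65-fold and 1.69-fold. The balance depended on scaling: under TMM 12 of the 21 were lower, as were 5960 of all 11856 tested genes.

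Peroxiredoxin 1, encoded by PRDX1, reduces hydrogen peroxide with electrons from thioredoxin, and sulfiredoxin, encoded by SRXN1, restores it when its active cysteine has been overoxidized. PRDX1 was listed at 420, 416 and 413 FPKM in HR-19011 libraries and at 546, 545 and 553 FPKM in vehicle libraries. All HR-19011 libraries were below all vehicle libraries, and the log2 fold change was -0.40 (limma SE 0.0205, adjusted p = 1.34e-07). SRXN1 was listed at 24.5, 23.9 and 23.9 FPKM in HR-19011 libraries and at 20.8, 20.2 and 20.1 FPKM in vehicle libraries. It stood above vehicle in every library (log2 fold change 0.23, SE 0.0314, adjusted p = 0.000109), but under TMM scaling the log2 difference was -0.0023 (adjusted p = 0.946). The ratio of SRXN1 to PRDX1 transcripts was higher in each treated library, as PRDX1 fell by more (-0.40) than SRXN1 rose (0.23). It was 0.0584, 0.0574 and 0.0577 under HR-19011 and 0.0382, 0.0370 and 0.0364 under vehicle. Protein was not measured.

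Of 8 other peroxiredoxins and sestrins, 7 were tested, 4 fell and 2 rose, where 38.0% of all tested genes were lower and 46.4% higher. The median log2 fold change of the 7 was -0.25, against 0.07 over all tested genes. PRDX2, the abundant peroxiredoxin of red cells, fell 1.83-fold to 135 ± 4.44 FPKM in HR-19011, against 248 ± 6.52 FPKM in vehicle libraries (SD, n = 3 each). Mitochondrial PRDX3 fell 1.62-fold, PRDX4 of the endoplasmic reticulum 1.53-fold, and PRDX6, a peroxiredoxin that uses glutathione, 1.19-fold. PRDX5 went the other way and rose 2.38-fold, to 209 ± 4.33 FPKM in HR-19011, against 87.8 ± 3.12 FPKM in vehicle libraries. Within a library PRDX1 to PRDX2 was 3.17, 2.96 and 3.10 with HR-19011 and 2.27, 2.17 and 2.20 with vehicle. PRDX1 to PRDX6 went the other way and was 2.25, 2.28 and 2.20 with HR-19011 and 2.43, 2.56 and 2.44 with vehicle. Among the sestrins, stress proteins reported to aid peroxiredoxin repair, SESN2 rose 7.14-fold to 77.9 ± 1.65 FPKM in HR-19011, against 10.9 ± 0.733 FPKM in vehicle libraries, and SESN1 was not called, at 2.29 ± 0.209 FPKM in HR-19011 and 2.28 ± 0.0706 FPKM in vehicle libraries (limma adjusted p = 0.956). SESN1 was called lower under TMM (log2 fold change -0.17, limma adjusted p = 0.0293) and under quantile scaling (-0.34, 0.000862).

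Other peroxide and superoxide enzymes and clients of thioredoxin fell more often than they rose. Of 15 such genes, 13 were tested, 8 fell and 4 rose, with a median log2 fold change of -0.76, where 38.0% of all tested genes were lower and 46.4% higher. With the filter at 5 FPKM 8 fell and 1 rose, where 3703 of all 8083 genes then tested fell and 3347 rose. PRXL2B, a peroxiredoxin-like protein, fell 5.78-fold and SOD2, mitochondrial superoxide dismutase, 2.60-fold. SOD2 varied widely within groups, at 11.1 ± 2.26 FPKM in HR-19011 and 28.97 ± 6.05 FPKM in vehicle libraries (SD, n = 3 each). The ribonucleotide reductase subunit RRM2B, the form used outside S phase, rose 1.41-fold, and the glutaredoxin GLRX2 fell 1.17-fold.

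**Figure D2:**
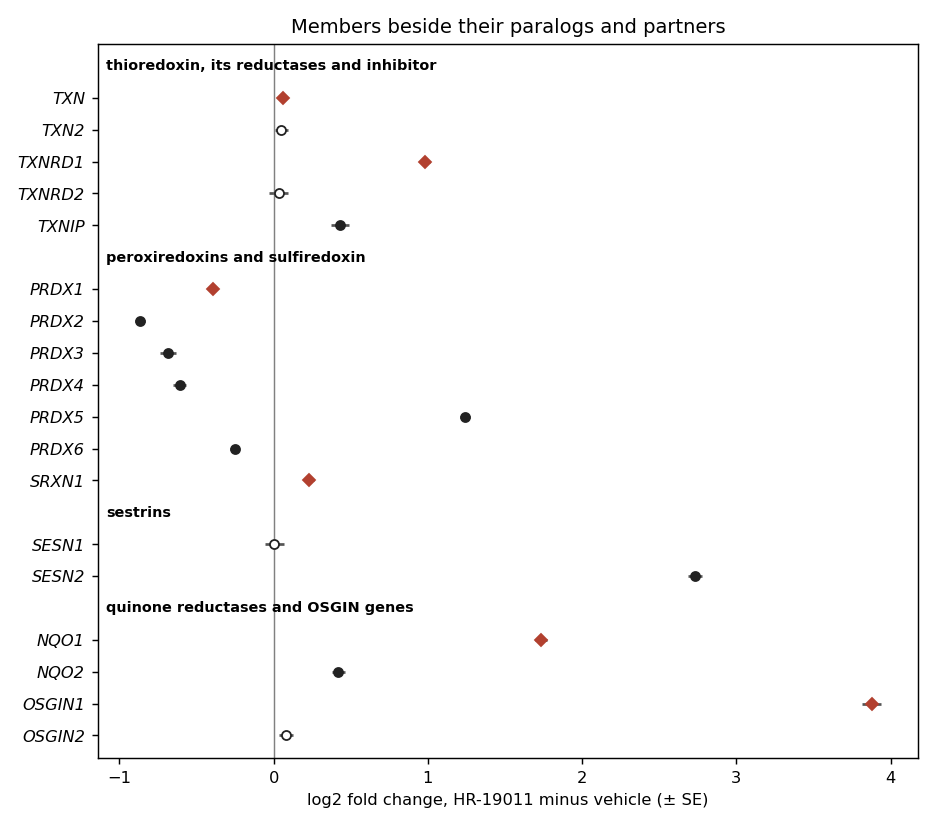
Log2 fold change (HR-19011 minus vehicle, log2(FPKM + 1) scale, bars are SE from limma) of the members (red diamonds) beside paralogs and partners (circles, open where adjusted p was 0.05 or more). TXNRD1, NQO1 and OSGIN1 lie to the right of TXNRD2, NQO2 and OSGIN2. TXNRD3, below the filter, is not plotted. PRDX1 lies left of 0 with PRDX2, PRDX3, PRDX4 and PRDX6, with PRDX5 on the other side.

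PGD, TALDO1 and ME1 supply or recycle the carbon and NADPH behind these reductions. PGD encodes 6-phosphogluconate dehydrogenase, the second NADPH-producing step of the pentose phosphate pathway. It was listed at 277, 284 and 270.0 FPKM in HR-19011 libraries and at 163, 160.0 and 167 FPKM in vehicle libraries, without overlap, and the log2 fold change was 0.76 (limma SE 0.0279, adjusted p = 1.52e-08). TALDO1 encodes transaldolase, an enzyme of the non-oxidative branch that exchanges carbon with glycolysis. It was listed at 265, 265 and 262 FPKM in HR-19011 libraries and at 251, 250.1 and 251 FPKM in vehicle libraries. The log2 fold change, 0.07 (limma SE 0.0209, adjusted p = 0.00965), was larger than the spread between libraries but lay at the median of all tested genes, turned to -0.17 under TMM scaling (adjusted p = 4.58e-05) and had an adjusted p of 0.0585 without a variance trend. PGD exceeded TALDO1 in all HR-19011 libraries, with ratios of 1.05, 1.07 and 1.03, and was below it in all vehicle libraries, with ratios of 0.652, 0.640 and 0.664.

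PGLS, the lactonase whose product is the substrate of the PGD enzyme, rose 2.20-fold to 59.5 ± 1.53 FPKM in HR-19011, against 27.0 ± 2.67 FPKM in vehicle libraries (SD, n = 3 each). H6PD, the NADPH-producing enzyme of the endoplasmic reticulum, reached 9.01 ± 0.264 FPKM in HR-19011, against 0.485 ± 0.104 FPKM in vehicle libraries. On the non-oxidative side RPIA, ribose 5-phosphate isomerase, fell 3.83-fold to 7.38 ± 0.115 FPKM in HR-19011, against 28.2 ± 1.63 FPKM in vehicle libraries. TKT, transketolase, fell 1.68-fold and RPE, the epimerase, 1.49-fold, and PRPS2 and PRPS1, which turn ribose 5-phosphate into the precursor of nucleotides, fell 2.64-fold and 2.09-fold. H6PD, RPE and PRPS1 are named here after their values were seen, to complete the branches. Of 12 pathway genes outside the 9, 10 were tested, 4 rose and 6 fell, where 46.4% of all tested genes were higher and 38.0% lower. The median log2 fold change of the 10 was -0.43, against 0.07 over all tested genes. The TALDO1 to TKT ratio was 3.49, 3.42 and 3.51 with HR-19011 and 2.04, 1.93 and 1.91 with vehicle.

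ME1, cytosolic malic enzyme, makes NADPH while turning malate into pyruvate. It was the least abundant of the 9 in HR-19011 libraries, at 9.92, 10.5 and 10.2 FPKM, and was listed at 3.62, 3.63 and 3.86 FPKM in vehicle libraries. Its log2 fold change was 1.26 (SE 0.0441, adjusted p = 1.12e-08 in limma), with no overlap. Mitochondrial ME2 rose 1.36-fold, and ME3 was listed at 0 in 2 libraries of each group. The ME1 to ME2 ratio was 1.62, 1.88 and 1.77 with HR-19011 and 0.821, 0.921 and 0.861 with vehicle. Among 14 other NADPH sources, related folate enzymes and NAD kinases, 12 were tested, 8 rose and 3 fell, with a median log2 fold change of 0.32. Not every gene of this list makes NADPH. The all-gene shares were 46.4% higher and 38.0% lower, with a median of 0.07. ALDH1L2, a mitochondrial folate enzyme, rose 43.5-fold to 18.3 ± 0.391 FPKM in HR-19011, against a low 0.421 ± 0.0303 FPKM in vehicle libraries (SD, n = 3 each). IDH1, cytosolic isocitrate dehydrogenase, rose 5.00-fold to 77.7 ± 0.376 FPKM in HR-19011, against 15.5 ± 0.607 FPKM in vehicle libraries. The folate enzyme MTHFD1 fell 2.28-fold and NADK, the cytosolic kinase that makes NADP, 1.39-fold.

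**Figure D3:**
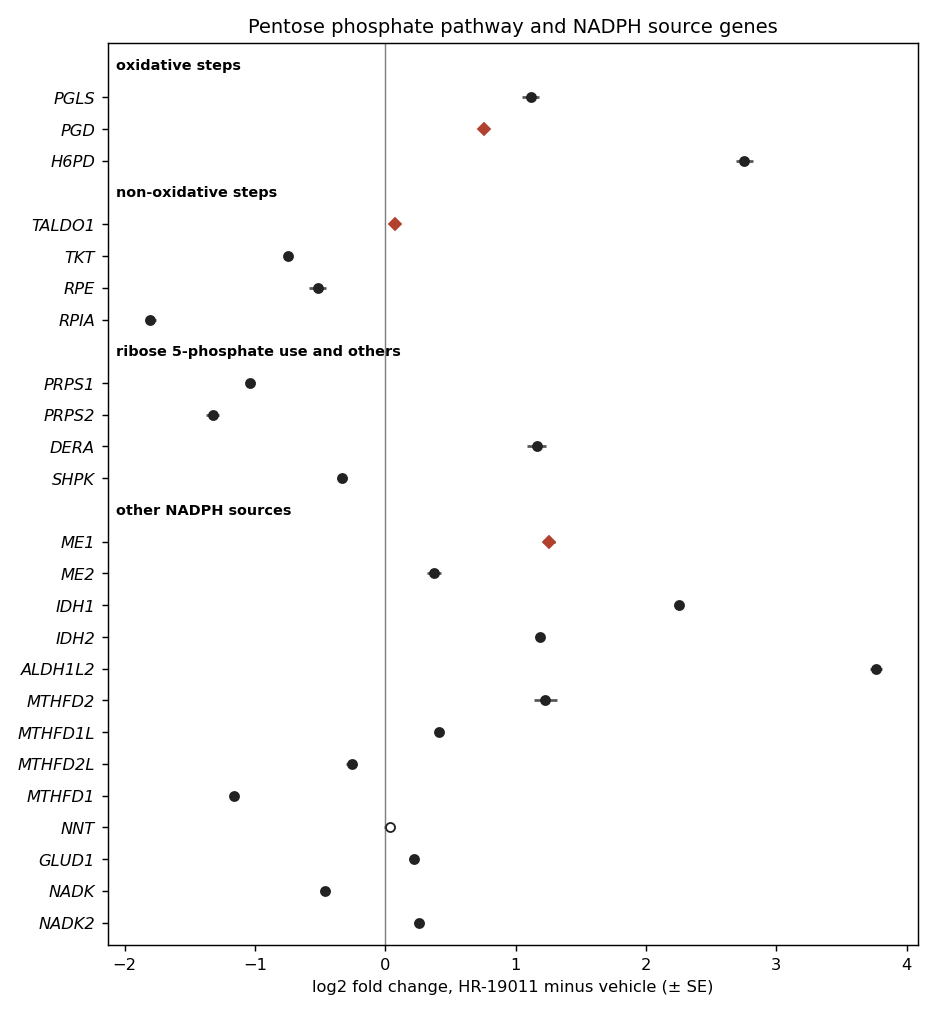
Log2 fold change (HR-19011 minus vehicle, log2(FPKM + 1) scale, bars are SE from limma) of pentose phosphate pathway genes and other NADPH sources. The latter are plotted with related folate enzymes and NAD kinases. PGD, TALDO1 and ME1 are red diamonds, and genes not called are open circles. The 3 genes of oxidative steps plotted lie right of 0 (0.76 to 2.76), TKT, RPE and RPIA lie left of 0 (-0.52 to -1.80), and TALDO1 sits near 0.

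The order of abundance, read per transcript length in FPKM, changed between the groups. In HR-19011 libraries the means fell in the order PRDX1, PGD, TALDO1, TXN, TXNRD1, NQO1, OSGIN1, SRXN1 and ME1, and no neighbours in that order overlapped. In vehicle libraries the order was PRDX1, TALDO1, PGD, TXN, TXNRD1, NQO1, SRXN1, ME1 and OSGIN1, and there PGD and TXN overlapped in their library values. Together the 9 transcripts summed to 1418 ± 11.5 FPKM in HR-19011 and 1241 ± 11.6 FPKM in vehicle libraries (SD, n = 3 each), or 0.335% and 0.269% of all listed FPKM.

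Because so many genes changed, the place of each transcript among all 11856 was compared under several scalings. Relative to FPKM as deposited, the all-gene median of log2 fold changes shifted by -0.21 under TMM scaling, by 0.12 after conversion to TPM and by -0.12 under quantile normalization. OSGIN1, NQO1, ME1, TXNRD1 and PGD stayed above and PRDX1 stayed below the all-gene median under each of these, and kept their calls. Of all calls 40.9% were higher under TMM, against 55.0% as deposited. By log2 fold change OSGIN1 stood at the 99.8th percentile of tested genes, NQO1 at the 96.3rd, ME1 at the 92.2nd, TXNRD1 at the 87.6th, PGD at the 82.2nd, SRXN1 at the 59.4th, TALDO1 at the 50.2nd, TXN at the 49.5th and PRDX1 at the 24.5th.

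**Figure D4:**
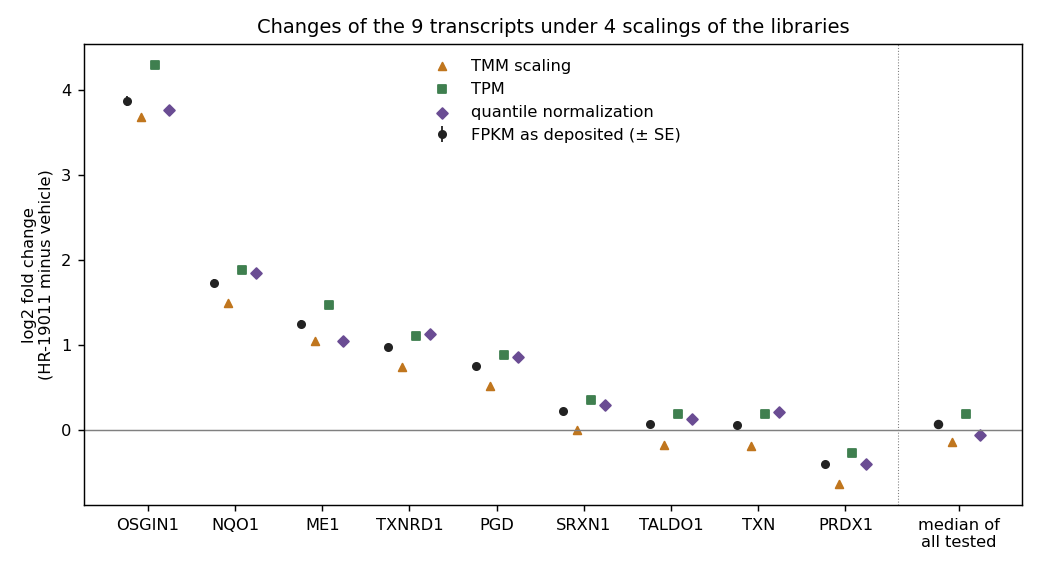
Log2 fold change (HR-19011 minus vehicle) of the 9 transcripts with FPKM as deposited (black, SE bars) and after TMM scaling, conversion to TPM and quantile normalization, with the median of all tested genes under each at the right. The 5 leftmost genes are above 0 under all 4, SRXN1, TALDO1 and TXN are above 0 except under TMM, and PRDX1 is below 0 under all 4.

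**Figure D5:**
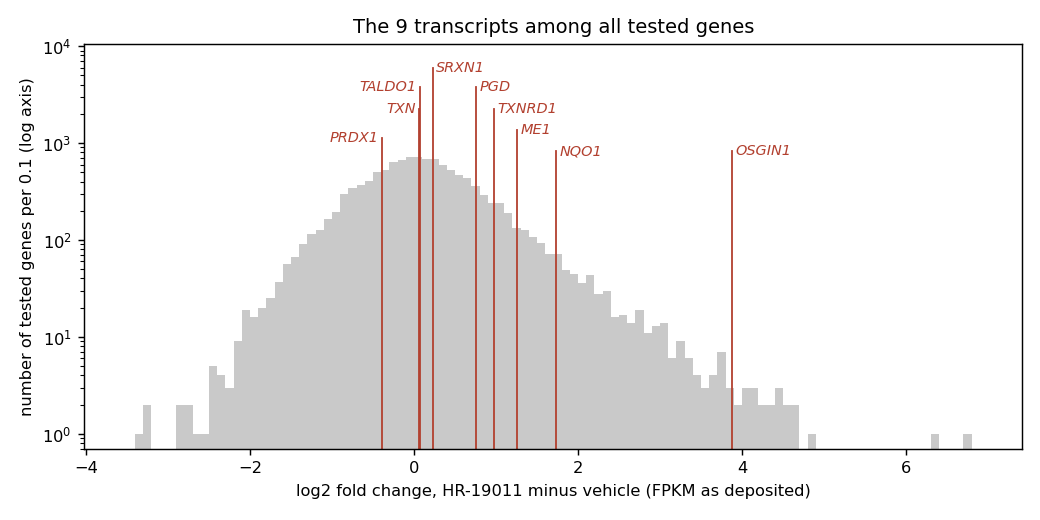
Number of tested genes per 0.1 of log2 fold change (log axis, FPKM as deposited), with a red line at each of the 9. TXN and TALDO1 (0.06 and 0.07) lie at the peak of the distribution, and OSGIN1 (3.88) lies in its right tail.

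Within-library ratios were computed for 17 of 18 enzyme pairs, since ME3 was listed at 0. The groups did not overlap for 15 of the 17, and for each the exact permutation p, two-sided with 3 libraries a group, was 0.1, the smallest this design allows (0.113 after Benjamini-Hochberg adjustment over 17). No ratio can therefore pass 0.05 here, and the ratios are given as values. TXN to TXN2 was 2.78, 2.58 and 2.79 with HR-19011 and 2.65, 2.80 and 2.63 with vehicle, an overlap that TXNRD1 to TXNRD2 did not show, at 5.74, 5.82 and 6.34 with HR-19011 and 3.46, 2.97 and 2.81 with vehicle.

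Other known NRF2 targets were higher more often than lower. Of 34 listed beside the 9, 27 were tested, 19 rose and 6 fell, with a median log2 fold change of 0.88, against 46.4% higher, 38.0% lower and a median of 0.07 over all tested genes. The autophagy receptor SQSTM1 rose 8.46-fold to 374 ± 5.35 FPKM in HR-19011, against 44.2 ± 0.904 FPKM in vehicle libraries (SD, n = 3 each), and the cystine transporter SLC7A11 was listed at 21.1 ± 0.259 FPKM in HR-19011 and 1.37 ± 0.198 FPKM in vehicle libraries. The heme oxygenase HMOX1, named after its values were seen, was below the filter, at 0.0218 FPKM or less in HR-19011 libraries and at 0 in vehicle libraries. GSTP1, a glutathione transferase, and TKT fell 1.62-fold and 1.68-fold. The list holds SQSTM1, SLC7A11 and others that other stress factors are also known to induce, and the part of each factor was not tested. It shares genes, such as SQSTM1, TKT, TXNIP and IDH1, with other lists here, so the list counts are not independent. Among 16 quinone and carbonyl reductases, 13 were tested, 8 rose and 1, CBR1, fell. Under TMM 6 were higher and 4 lower, and in TPM 11 were higher and 1 lower. Of all 11856 tested genes, 4128 were higher and 5960 lower under TMM, and 6269 higher and 3811 lower in TPM. CBR4, a carbonyl reductase of mitochondria, rose 1.34-fold but was not called under TMM (limma adjusted p = 0.058) or quantile scaling (0.0794). AKR1C2 and AKR1C3, aldo-keto reductases with near-identical relatives whose reads cannot be divided with certainty, were listed 7.59-fold and 6.62-fold higher.

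NRF2 and its regulators moved in both directions, as did all tested genes. Of 18, 10 rose, 5 fell and 3 were not called, where 46.4% of all tested genes were higher and 38.0% lower. The median log2 fold change of the 18 was 0.35, against 0.07 over all tested genes. The list holds both activators and inhibitors of NRF2, so its count by direction is not a measure of NRF2 activity. NFE2L2, encoding NRF2, was at 41.6 ± 1.41 FPKM in HR-19011 and 21.5 ± 0.927 FPKM in vehicle libraries, a rise of 1.94-fold (SD, n = 3 each). KEAP1 fell 1.31-fold to 32.8 ± 1.30 FPKM in HR-19011, against 43.1 ± 2.02 FPKM in vehicle libraries, and BACH1 rose 1.98-fold to 18.4 ± 0.236 FPKM in HR-19011, against 9.29 ± 0.169 FPKM in vehicle libraries. These 3 are named after their values were seen. NFE2L1, encoding the related factor NRF1 that governs proteasome genes, rose 2.38-fold, and CUL3 and RBX1, parts of the ligase that degrades NRF2, fell 1.65-fold and 1.48-fold.

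By distance between vehicle-centred log2(FPKM + 1) values over the 6 libraries, the genes nearest to OSGIN1 were MILR1 (distance 0.0995), OLAH (0.120) and SH3TC1 (0.218). They were at 31.5, 14.4 and 14.8 FPKM in HR-19011 libraries and at 1.253, 0.0364 and 0.0195 FPKM in vehicle libraries. Those nearest to NQO1 were SRGN (0.0570), NAGK (0.0609) and NOSTRIN (0.0937). With 2 conditions such likeness is mainly a like size of change on the log2(FPKM + 1) scale. By fold of FPKM, OLAH and SH3TC1, near 0 in vehicle libraries, rose by more than OSGIN1.

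Annotation bears on a few values. On GRCh38 NQO1 lies on chromosome 16 from 69709401 to 69726560, OSGIN1 on chromosome 16 from 83953240 to 83966332, TXNRD1 on chromosome 12 from 104215779 to 104350307, PGD on chromosome 1 from 10399064 to 10420511 and ME1 on chromosome 6 from 83210402 to 83431051. SRXN1 lies on chromosome 20 from 646615 to 653200, TXN on chromosome 9 from 110243810 to 110256507 and TALDO1 on chromosome 11 from 747464 to 765012. PRDX1 lies on chromosome 1 from 45511051 to 45522890, where its end overlaps MMACHC on the other strand, a gene at 3.11 FPKM in HR-19011 and 6.91 FPKM in vehicle libraries. The pseudogene RPL18AP3, inside TXNRD1 on the same strand, was at 35.2 FPKM in HR-19011 and 38.1 FPKM in vehicle libraries. The 8 pseudogenes named after TXN, PRDX1, PGD or TALDO1 were at 0.442 FPKM or below in all libraries, but the sources used here do not state how multiply matching reads or strand were handled in counting.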

How the data were processed

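RNA of K562 cells was measured in 6 libraries, 3 with HR-19011 and 3 with vehicle. Per the labels' protocols, TRIzol-extracted RNA was made into TruSeq stranded mRNA libraries. Per the submitters' processing notes, the tools were StringTie 2.1.3b, DESeq2 1.24.0, Bowtie2, HISAT, HISAT2 2.1.0, Trimmomatic 0.38 and SAMtools 1.9 on GRCh38, without a stated role for each. Per the file headers, the deposited values are FPKM per gene. To see whether reads could be recovered, low values of single-transcript genes spanning up to 1500 bases were compared with multiples of a per-read step. In each library 25.9% to 29.3% came within 0.1 of an integer at the best step, where a fixed step gives 20% by chance, so no count model was used and depth is unknown.

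Groups came from sample titles. Genes whose mean reached 1 FPKM were tested on log2(FPKM + 1) in limma 3.58.1 (R 4.3.3). The model held group alone, with a variance trend, two-sided moderated tests and Benjamini-Hochberg adjustment across every tested gene (threshold 0.05). A fold written without log2 divides the group means of FPKM. Log2 values understate the change of low genes. Ratios used an exact permutation test in scipy 1.17.1. TMM scaling trimmed 30% of log ratios and 5% of mean logs at each end. The fit was checked on data with known answers.

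The members and gene lists were chosen with earlier results of these data known. From each list the text names the 2 genes at either end of the log2 fold changes, if called and averaging 5 FPKM or more (lists with up to 8 tested genes are named whole), besides the 9 enzymes and the ratio pairs, and the 3 genes nearest to OSGIN1 and NQO1. Others are said to be chosen after their values were seen. An item that the rule names is not reported here, but counts over lists and ratio pairs include it.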

Additional observations from a re-analysis of the deposited data

How the results depend on the processing

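Each result was recomputed with a pseudocount of 0.1 or 5, without the filter, with a filter at 5 FPKM, under TMM, TPM and quantile scaling, without the variance trend, with a replicate block, and without each library. Of 135 values of the 9 fold changes under 15 alternatives each, 124 kept their direction and side of the threshold. OSGIN1, NQO1, ME1, TXNRD1, PGD and PRDX1 kept both under all 15, with log2 fold changes of 2.71 to 4.42, 1.499 to 1.88, 0.81 to 1.48, 0.74 to 1.13, 0.52 to 0.88 and -0.64 to -0.27. TMM scaling gave 5 members higher and 3 lower, with SRXN1 at -0.0023, TXN at -0.18, TALDO1 at -0.17, OSGIN2 at -0.13, SESN1 at -0.17, TXN2 at -0.19 and TXNRD2 at -0.20; quantile normalization gave OSGIN2 -0.13 and SESN1 -0.34. Except for SRXN1, these values passed the threshold as lower, and the cause was not tested. In TPM OSGIN2 (0.20), TXN2 (0.17) and TXNRD2 (0.16) were called higher, as was TXN2 (0.21) under quantile normalization. TMM also gave 12 lower selenoprotein genes, and over all tested genes 4128 higher and 5960 lower. Genes higher over the whole table numbered 8828 without a filter and 3347 with the filter at 5 FPKM, as more or fewer genes were tested. Leaving out each library gave 7 to 8 members higher and 1 lower, 5318 to 5419 genes higher and 4345 to 4452 lower; SESN1 and TXNRD2, neither called, ranged from -0.0383 to 0.0534 and from -0.0203 to 0.0892. The titles number the replicates without stating a pairing. Same-numbered libraries had correlations of -0.108 to -0.0045 of their deviations from group means, against -0.0338 to 0.0697 for other pairs. Deviations within a group of 3 sum to 0, so these values cannot decide whether the numbers pair the libraries. With the replicate block 7 members were higher and 1 lower, TXN being lost at adjusted p = 0.0795. Without read counts, the limit that depth sets on low values such as OSGIN1 in vehicle libraries is unknown.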
